A study of Mus musculus with 12 samples.

Results

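Genes of the actin cytoskeleton and the contractile apparatus, together with targets of the transcription factor SRF and of the coactivator YAP, were followed as 1 group of 42 genes in mature 3T3-L1 adipocytes. The members were given as a list of symbols and were looked up in a table of 27473 features, each of which carries a gene symbol. For 41 of the 42 symbols a feature was found, and for Tagln, which encodes the smooth muscle protein transgelin, no value is given here. The study asked by RNA-seq which genes respond to gain and loss of the DNA methyltransferase Dnmt3a. Mouse 3T3-L1 preadipocytes were differentiated with dexamethasone, IBMX and insulin and received a lentivirus on day 8, as adipocytes, and all libraries were made from RNA taken 4 days after transduction. The groups were GFP in the vector pCDH (GFP), Dnmt3a in the same vector (Dnmt3a), a scrambled hairpin (shScr) and a hairpin against Dnmt3a (shDnmt3a), with 3 libraries each and 12 in all. The labels do not say which of the study's hairpins against Dnmt3a was used. Loss of Dnmt3a and other effects of the hairpin cannot be told apart here. GFP and shScr were labelled as controls. All groups therefore share 1 cell line, the hormone treatment and a lentivirus, and no group without virus was analysed here. Separate cultures are not named for the libraries of 1 group, and the p-values therefore measure a spread that may be technical.

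The unit of level is CPM, the count of a feature relative to the total of its library, with totals scaled over all 12 libraries by the trimmed mean of M-values (TMM). Total counts ran from 29084732 to 47341091 per library. Dnmt3a itself stood between 90.3 and 96.8 CPM in GFP, between 2735 and 2790 CPM in Dnmt3a, between 78.8 and 86.5 CPM in shScr and between 39.3 and 40.8 CPM in shDnmt3a libraries, each group on the side its label gives. A gene was called where edgeR's quasi-likelihood test gave a Benjamini-Hochberg adjusted p under 0.05 over all features tested, and "higher", "lower", "rose" and "fell" are used only of called genes. The cells carried the adipocyte markers Lpl, between 5101 and 9964 CPM, and Fabp4, between 3776 and 6677 CPM, whereas the skeletal and cardiac muscle list of 10 genes summed to between 2.11 and 3.28 CPM, with 2 of its genes, Myod1 and Myh6, at 0 in all libraries.

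Actin monomers polymerise into filaments that tropomyosins coat, that alpha-actinins and filamins crosslink, and on which myosin II pulls. Monomeric actin holds the coactivator MRTF-A (Mkl1) in the cytoplasm, and its use in filaments frees MRTF-A to bind SRF, which activates actin and other cytoskeletal genes through a DNA element called the CArG box. YAP responds to tension and cell spreading as well and acts through TEAD factors, which bind the MCAT element CATTCC. In 3T3-L1 cells the actin cytoskeleton is remodelled from stress fibres to cortical actin during conversion to adipocytes.

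The promoter windows of the members are shown because both elements can be read in them. RefSeq windows of build GRCm38.p6, from 250 bases before to 50 bases after the start site, were matched for 36 of 42 members, and the 6 others were Actg2, Actb, Tagln, Myh11, Tnnt3 and Ctgf. A CArG box lay in the windows of 8 of these 36 genes (22.22%), against 1.81% of 27025 genes and 1.63% of all 32851 windows. CATTCC, searched on both strands, lay in windows of 18 of 36 members, against 16.58% of genes and 14.66% of windows. No CArG box overlapped a CATTCC match in a member's window. The list was built around SRF and YAP targets, so that these shares describe it, and a match is a sequence, not a shown binding site. The CArG boxes of 6 tested members are in capitals below, written 5' to 3' on the strand of the gene, from windows at chr11:120348556-120348605 (Actg1, minus strand), chr10:79988524-79988573 (Cnn2, plus), chr2:156775283-156775332 (Myl9, plus), chr10:128493030-128493079 (Myl6, minus), chr14:20929151-20929200 (Vcl, plus) and chr17:46556215-46556264 (Srf, minus, with 2 boxes).
Actg1: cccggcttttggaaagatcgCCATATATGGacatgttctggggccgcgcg
Cnn2: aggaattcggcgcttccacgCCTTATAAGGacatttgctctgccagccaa
Myl9: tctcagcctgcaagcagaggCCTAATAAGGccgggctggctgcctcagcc
Myl6: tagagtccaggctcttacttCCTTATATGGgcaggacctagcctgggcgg
Vcl: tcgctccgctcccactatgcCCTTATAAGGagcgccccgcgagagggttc
Srf: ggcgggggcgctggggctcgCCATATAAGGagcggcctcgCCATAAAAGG

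The next windows show CATTCC, or GGAATG where the match lies on the opposite strand, in capitals for 6 members whose changes are described below. They lie at chr19:34255494-34255539 (Acta2, minus strand), chr1:172500108-172500153 (Tagln2, plus), chr1:135324663-135324708 (Lmod1, plus), chr3:145650063-145650108 (Cyr61, minus), chr19:36119942-36119987 (Ankrd1, minus) and chr9:102717719-102717764 (Amotl2, plus). Tagln2 and Ankrd1 each hold a further match outside the stretch shown.
Acta2: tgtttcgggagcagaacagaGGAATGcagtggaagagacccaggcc
Tagln2: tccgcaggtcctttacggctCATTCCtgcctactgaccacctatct
Lmod1: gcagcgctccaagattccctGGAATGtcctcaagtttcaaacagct
Cyr61: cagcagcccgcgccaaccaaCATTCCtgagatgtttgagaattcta
Ankrd1: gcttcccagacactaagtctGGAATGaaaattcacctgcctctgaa
Amotl2: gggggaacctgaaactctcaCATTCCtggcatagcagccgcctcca

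On Dnmt3a overexpression the group moved down by modest amounts. Of 38 members tested, 21 were lower (55.3%), where 12.9% of all 14168 features tested were lower, and 3 were higher (7.89%), where 14.3% of all features were higher. The members lower by the most were Ctgf, Smtn, Myl9, Ankrd1 and Tagln2, by between 0.51 and 0.69 on the log2 scale, and the higher ones were Myl6, Myh11 and Des. The median log2 fold change was -0.23 over the members tested and -0.01 over all features tested.

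On knock-down more members were higher than lower. Of 36 members tested, 15 were higher (41.7%), where 23.3% of all 14115 features were higher, and 10 were lower (27.8%), where 22.5% of all features were lower, so that the share of lower members was near that of all features. Ctgf, Lmod1, Ankrd1, Myh11, Tagln2 and Tpm4 rose by more than 0.5 on the log2 scale, and Flna and Amotl2 fell by more than 0.5. The median log2 fold change was 0.12 over members and -0.00027 over all features. Actn4 and Cyr61 were called although their groups overlapped.

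The controls themselves differed. Between shScr and GFP, in a fit of all 12 libraries, 27 of 38 members were lower in shScr (71.1%), where 22.8% of all 14491 features were lower, and 3 were higher (7.89%), Cnn3, Myh10 and Lmod1, where 23.7% of all features were higher. Cyr61, Ankrd1, Acta2 and Ctgf were lower in shScr by more than 1 on the log2 scale. Myl9, also among the 27, entered this fit through the GFP and Dnmt3a libraries, where it is high, so that its call is no support for the count. This comparison shares its libraries with both of the others, so that its values are set beside theirs and are not a further test of them. Vector, insert and any difference in culture or sequencing between the pCDH and hairpin libraries cannot be told apart. In bulk RNA a smaller number of cells of a type and less RNA per cell cannot be told apart either.

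Sums of marker levels differed between some of the groups. The 5 proliferation markers, led by Cdk1 and Top2a, summed to between 67.5 and 68.6 CPM in GFP, 44.8 and 47.01 CPM in Dnmt3a, 34.3 and 39.5 CPM in shScr and 36.3 and 38.8 CPM in shDnmt3a. All 10 adipocyte markers were higher on overexpression (100%, where 14.3% of all features were higher). Their sum stood between 23740 and 24730 CPM in GFP, 29630 and 29820 CPM in Dnmt3a, 20070 and 20540 CPM in shScr and 19410 and 19760 CPM in shDnmt3a. The 10 preadipocyte and fibroblast markers, led by Pdgfra and Postn, summed to between 917 and 941 CPM in GFP, 939 and 983 CPM in Dnmt3a, 1326 and 1342 CPM in shScr and 1220 and 1241 CPM in shDnmt3a. Macrophage markers summed to between 9.91 and 10.9 CPM in GFP and between 14.4 and 16.8 CPM in Dnmt3a. In shScr their sum stood between 8.32 and 9.61 CPM, and in shDnmt3a between 16.1 and 16.8 CPM. Of the 5 tested, 2 were higher on overexpression (40%, where 14.3% of all features were higher) and 3 were not called. Knock-down left 1 higher (20%) and 1 lower (20%), near the shares of all features. Endothelial markers summed to between 1.07 and 2.07 CPM over the 12 libraries. The proliferation sums of the hairpin groups overlapped, as did the fibroblast sums of GFP and Dnmt3a. On knock-down 3 of the 10 adipocyte markers were higher (30%) and 3 lower (30%), near the 23.3% and 22.5% of all features. The part of these cell states in the members' changes was not tested.

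**Figure D1:**
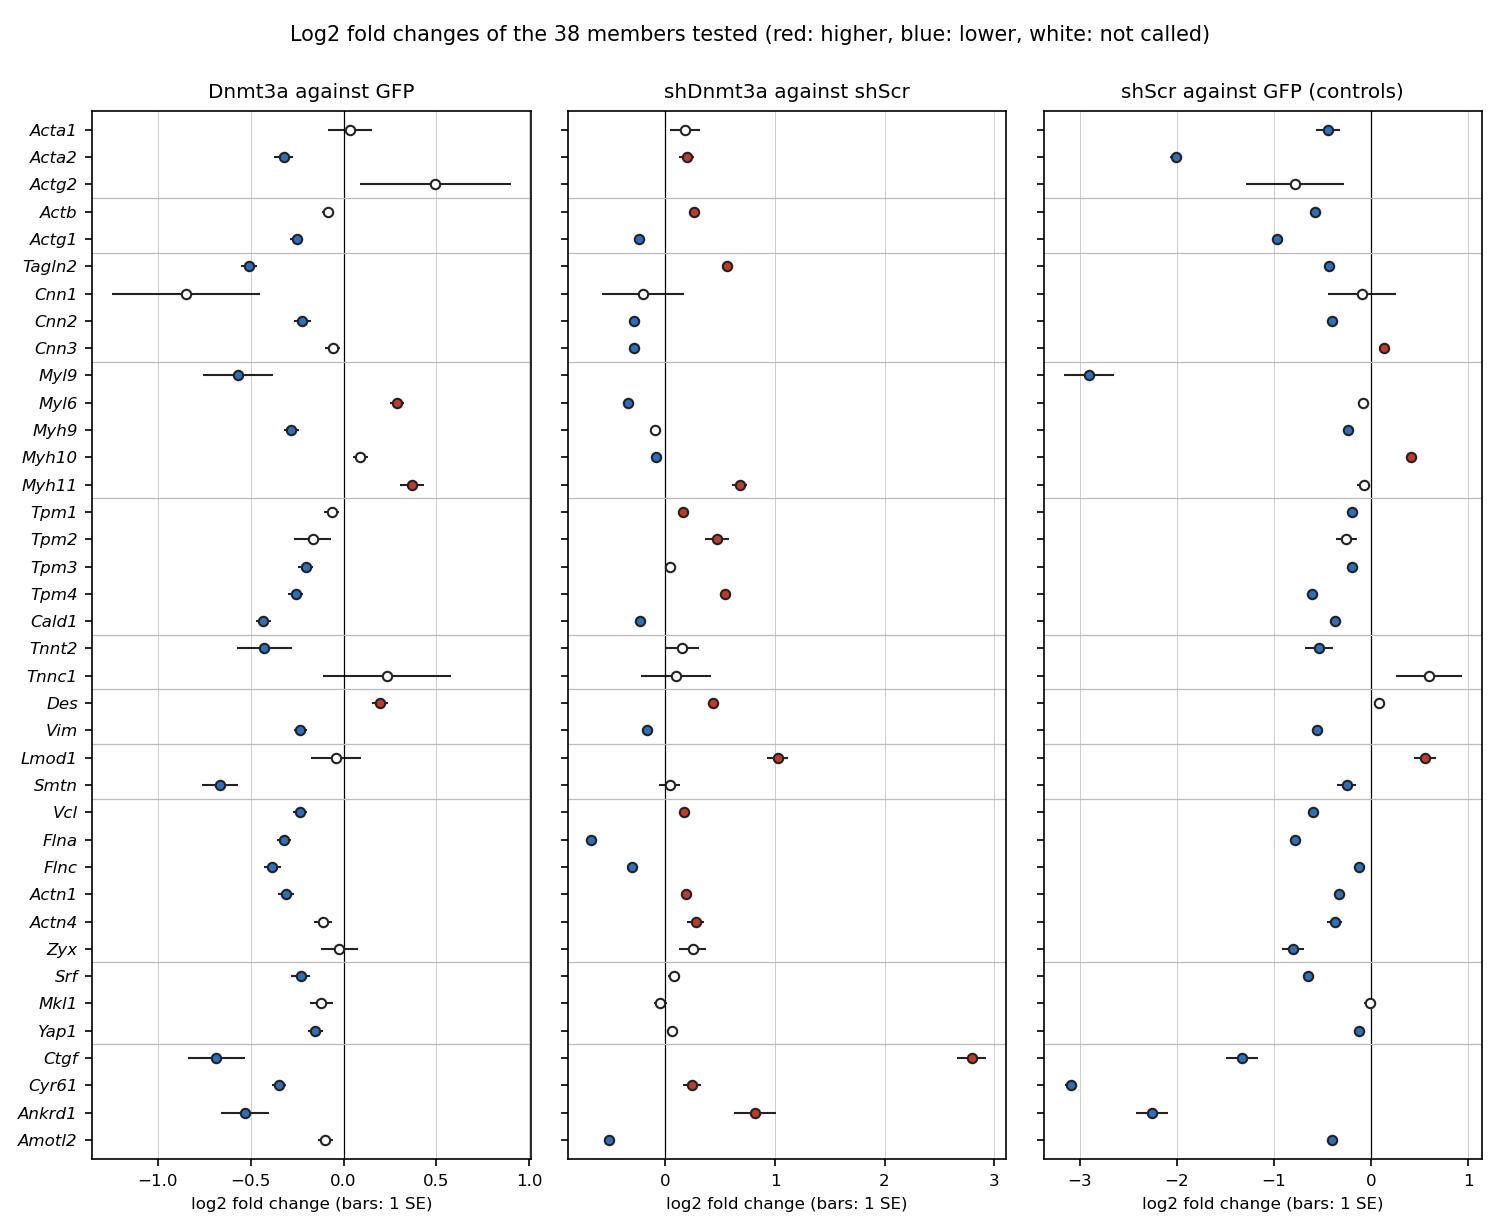
Log2 fold change of each of the 38 members tested (points, with bars of 1 SE), ordered by role, on overexpression, on knock-down and between the controls; red marks higher, blue lower and white not called, and the 3 horizontal axes differ in range. The 21 lower members fill most of the overexpression panel, the knock-down panel holds 15 higher and 10 lower members, and the control panel reaches down to -3.09.

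The muscle actins are the isoforms of smooth, skeletal and cardiac muscle, and Acta2, the smooth muscle alpha-actin of myofibroblasts, was by far the most abundant of them here. Acta2 stood at 49.95, 45.8 and 47.8 CPM in the GFP libraries, at 38.1, 38.5 and 38.4 CPM in Dnmt3a, at 12.2, 11.8 and 11.6 CPM in shScr and at 13.1, 13.4 and 14.01 CPM in shDnmt3a. The GFP libraries were above all others, Dnmt3a came next without overlap, and both hairpin groups lay far below. On overexpression Acta2 was lower, with a log2 fold change of -0.32 ± 0.05 (SE, n = 3 per group, edgeR quasi-likelihood, Benjamini-Hochberg adjusted p = 3.51e-06). On knock-down it was higher by 0.19 ± 0.07 (edgeR quasi-likelihood, Benjamini-Hochberg adjusted p = 0.0319). That call was lost with DESeq2, without a filter on low counts, without shScr replicate 2 (0.19) or 3 (0.18) and without shDnmt3a replicate 2 (0.20) or 3 (0.17), with adjusted p over all alternatives between 0.0163 and 0.113. The difference between the controls, -2.01 ± 0.06, was larger than either.

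Acta1, skeletal muscle alpha-actin, stood at 4.08, 3.68 and 4.29 CPM in GFP, 4.14, 4.02 and 4.17 CPM in Dnmt3a, 2.61, 3.13 and 3.09 CPM in shScr and 3.69, 2.98 and 3.33 CPM in shDnmt3a. Its ranges overlapped within both pairs and it was called in neither (0.04 ± 0.12 and 0.18 ± 0.14), while shScr lay below GFP (-0.45 ± 0.12). Actg2, the enteric smooth muscle actin, had between 6 and 16 counts per library in GFP and Dnmt3a, between 2 and 9 in shScr and between 7 and 11 in shDnmt3a. It was not called on overexpression, with a log2 value of 0.49 ± 0.41, and had too few counts for the test on knock-down. Actc1, cardiac alpha-actin, had between 0 and 3 counts in every library, which is at or under the limit of 3 counts that a count of 0 allows (between 0.0627 and 0.107 CPM in the libraries), and this and later intervals of counts cover counting error only. Actins are close in sequence, and reads shared between them could be credited to the wrong isoform.

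Actb and Actg1 encode the cytoplasmic beta- and gamma-actin found in all cells. Actb stood at 2400, 2433 and 2460 CPM in GFP, 2298, 2265 and 2335 CPM in Dnmt3a, 1593, 1611 and 1674 CPM in shScr and 1975, 1916 and 1933 CPM in shDnmt3a. The Dnmt3a libraries lay below GFP and the shDnmt3a libraries above shScr. Only the second difference was called, at 0.26 ± 0.03 (edgeR quasi-likelihood, Benjamini-Hochberg adjusted p = 7.62e-07); on overexpression the value was -0.08 ± 0.03 with an adjusted p of 0.0563, which passed with DESeq2, with a stricter filter of 1 CPM and in a fit of all 12 libraries. Actg1, between 620 and 648 CPM in GFP, was lower on overexpression (-0.25 ± 0.04), lower on knock-down (-0.24 ± 0.04) and lower in shScr than GFP (-0.97 ± 0.04). Actb and Actg1 thus parted on knock-down. Per length, as a share of the summed CPM per kilobase of all 6 actins, Actb made up 78.2 ± 0.5% in GFP, 80.2 ± 0.2% in Dnmt3a, 82.9 ± 0.2% in shScr and 87.1 ± 0.3% in shDnmt3a (SD, n = 3). Actg1 made up 20.4 ± 0.5%, 18.6 ± 0.2%, 16.5 ± 0.1% and 12.2 ± 0.3% in the same order, and Acta2 1.15 ± 0.06%, 0.997 ± 0.02%, 0.451 ± 0.02% and 0.453 ± 0.02%. The shares of Acta2 in the hairpin groups differed by less than their SD.

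Non-muscle myosin II heavy chains are Myh9 and Myh10, and Myh11 is the heavy chain of smooth muscle. Myh11 stood at 17.7, 16.5 and 16.8 CPM in GFP, 21.8, 22.8 and 21.4 CPM in Dnmt3a, 16.6, 16.7 and 15.04 CPM in shScr and 25.6, 27.6 and 24.0 CPM in shDnmt3a. Both manipulated groups lay above their own controls, and the controls overlapped each other. It rose by 0.37 ± 0.06 on overexpression (edgeR quasi-likelihood, Benjamini-Hochberg adjusted p = 2.99e-05) and by 0.68 ± 0.07 on knock-down (adjusted p = 1.10e-07 by the same test). Myh9, between 522 and 581 CPM in GFP, was lower on overexpression (-0.28 ± 0.04) and had a value of -0.10 ± 0.04 on knock-down, which was not called. That value was called without shScr replicate 1 (-0.14), without a filter on low counts and in a fit of all 12 libraries. Myh10 had a value of 0.09 ± 0.04 on overexpression, not called except without GFP replicate 1 (0.12), and was lower on knock-down by a small amount (-0.09 ± 0.03), a call lost without shScr replicate 2 (-0.07) and without shDnmt3a replicate 2 (-0.09) or 3 (-0.07). It was 1 of the 3 members higher in shScr than GFP (0.41 ± 0.04).

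As shares of the CPM per kilobase of these 3 heavy chains, Myh9 made up 59.7 ± 0.3% in GFP, 53.0 ± 0.1% in Dnmt3a, 48.9 ± 1.1% in shScr and 48.0 ± 0.5% in shDnmt3a (SD, n = 3). Myh11 made up 2.50 ± 0.05%, 3.48 ± 0.17%, 2.29 ± 0.17% and 3.85 ± 0.19% in that order. Of the light chains, Myl9, the regulatory chain of smooth muscle and non-muscle myosin, stood at 2.15, 1.80 and 1.96 CPM in GFP, 1.53, 1.10 and 1.35 CPM in Dnmt3a, 0.258, 0.237 and 0.292 CPM in shScr and 0.278, 0.265 and 0.113 CPM in shDnmt3a. The Dnmt3a libraries lay below GFP, and the hairpin libraries had too few counts for a test of knock-down. Its log2 fold change on overexpression was -0.57 ± 0.19 (edgeR quasi-likelihood, Benjamini-Hochberg adjusted p = 0.0214), a call lost with DESeq2, without GFP replicate 1 (-0.49) and without Dnmt3a replicate 2 (-0.47) or 3 (-0.57), with adjusted p over all alternatives between 0.0148 and 0.101. Between the controls Myl9 differed by -2.91 ± 0.26. Myl6, the essential light chain of the same myosins, took the opposite course: between 339 and 357 CPM in GFP, 413 and 446 CPM in Dnmt3a, 324 and 335 CPM in shScr and 253 and 264 CPM in shDnmt3a, it was higher on overexpression (0.29 ± 0.04) and lower on knock-down (-0.34 ± 0.03), the only member called that way round.

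**Figure D2:**
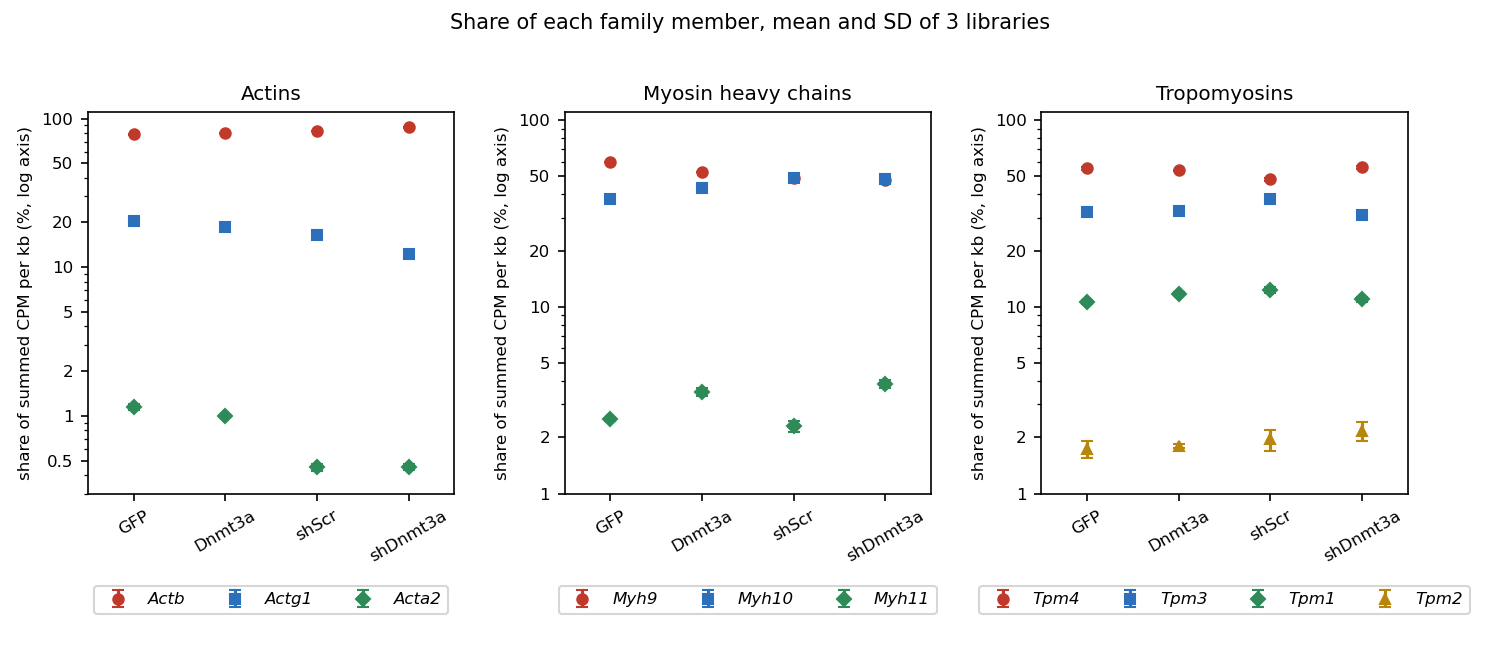
Share of each gene in the summed CPM per kilobase of its family (log axis, mean and SD of 3 libraries) in the 4 groups, for actins, myosin heavy chains and tropomyosins. Actb rises from 78.2% in GFP to 87.1% in shDnmt3a while Actg1 goes from 20.4% to 12.2%, Myh11 is above its control in Dnmt3a and in shDnmt3a, and Tpm4 is lowest in shScr.

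Tropomyosins lie along the actin filament and set which myosins and severing factors reach it. Tpm4 stood at 211, 209.7 and 218 CPM in GFP, 180.0, 176 and 179 CPM in Dnmt3a, 145, 133 and 139.7 CPM in shScr and 200.1, 197 and 209 CPM in shDnmt3a. Its 4 groups did not overlap within either pair. It fell by 0.26 ± 0.04 on overexpression (edgeR quasi-likelihood, Benjamini-Hochberg adjusted p = 2.85e-06) and rose by 0.54 ± 0.04 on knock-down (adjusted p = 9.82e-10 by the same test), and its level in shDnmt3a was near that in GFP. Tpm1 and Tpm2 were higher on knock-down as well, by 0.16 ± 0.04 and 0.47 ± 0.11, and were not called on overexpression (-0.06 ± 0.04 and -0.17 ± 0.10). Tpm3 was lower on overexpression (-0.20 ± 0.04) and not called on knock-down (0.05 ± 0.04). Caldesmon (Cald1), which binds actin and tropomyosin and holds back myosin, was lower in both: between 323 and 334 CPM in GFP, it changed by -0.43 ± 0.04 on overexpression and by -0.24 ± 0.03 on knock-down. Of the tropomyosins' summed CPM per kilobase, Tpm4 made up 55.4 ± 1.0% in GFP, 53.8 ± 0.6% in Dnmt3a, 48.2 ± 0.8% in shScr and 55.9 ± 0.9% in shDnmt3a (SD, n = 3). Tropomyosin genes share exons of like sequence, and their reads may be split between them.

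Transgelin-2 (Tagln2) and the calponins bind actin filaments through a shared type of domain. Tagln2 stood at 72.6, 74.9 and 74.5 CPM in GFP, 54.5, 52.3 and 49.4 CPM in Dnmt3a, 56.4, 53.8 and 54.4 CPM in shScr and 80.8, 78.8 and 81.9 CPM in shDnmt3a. The Dnmt3a libraries were below GFP and the shDnmt3a libraries above shScr, and the Dnmt3a libraries were close to shScr. It changed by -0.51 ± 0.05 on overexpression (edgeR quasi-likelihood, Benjamini-Hochberg adjusted p = 7.37e-11) and by 0.56 ± 0.04 on knock-down (adjusted p = 1.15e-09 by the same test). Of the calponins, Cnn2 was lower in both comparisons (-0.22 ± 0.05 and -0.28 ± 0.05). Cnn3 was lower on knock-down (-0.29 ± 0.04), with a value of -0.06 ± 0.04 on overexpression. Cnn1, the calponin of smooth muscle, had between 6 and 20 counts per library; it was called neither on overexpression (-0.85 ± 0.40) nor on knock-down (-0.21 ± 0.37), and on overexpression it passed the filter through the GFP libraries alone.

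The troponins regulate contraction of striated muscle. Tnnt2, the cardiac troponin T, stood between 3.04 and 3.29 CPM in GFP and between 2.01 and 2.60 CPM in Dnmt3a, and was lower on overexpression (-0.43 ± 0.15; edgeR quasi-likelihood, Benjamini-Hochberg adjusted p = 0.0281). This call was lost with DESeq2, without GFP replicate 1 (-0.43) or 2 (-0.40) and without Dnmt3a replicate 3 (-0.31), with adjusted p over all alternatives between 0.0218 and 0.184. Tnnc1, with between 11 and 30 counts per library, was called neither on overexpression (0.23 ± 0.34) nor on knock-down (0.10 ± 0.32). Tnnt1 and Tnnt3 had at most 2 and 9 counts in any library and were not tested.

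Of the intermediate filament genes, which encode the mesenchymal vimentin and the muscle protein desmin, Vim was lower and Des higher in both comparisons. Vim, between 1179 and 1192 CPM in GFP, changed by -0.23 ± 0.03 on overexpression and by -0.17 ± 0.04 on knock-down. Des, between 72.4 and 75.9 CPM in GFP, 81.1 and 87.6 CPM in Dnmt3a, 74.4 and 80.5 CPM in shScr and 103 and 108 CPM in shDnmt3a, rose by 0.20 ± 0.04 and by 0.44 ± 0.04. Des and Myh11 were the members higher in both comparisons.

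Leiomodin-1 (Lmod1) nucleates actin filaments in smooth muscle, and smoothelin (Smtn) binds them in contractile smooth muscle cells. Lmod1 stood at 3.95, 2.94 and 3.75 CPM in GFP, 3.48, 3.27 and 3.59 CPM in Dnmt3a, 5.51, 4.71 and 5.52 CPM in shScr and 9.91, 11.0 and 10.9 CPM in shDnmt3a. The shDnmt3a libraries were about 2.03 times as high as shScr, while GFP and Dnmt3a overlapped. Its log2 fold change was 1.02 ± 0.09 on knock-down (edgeR quasi-likelihood, Benjamini-Hochberg adjusted p = 3.06e-08) and -0.04 ± 0.13 on overexpression, which was not called. Smtn showed the converse, at 10.9, 9.34 and 10.1 CPM in GFP, 7.25, 5.76 and 6.10 CPM in Dnmt3a, 7.89, 8.74 and 8.94 CPM in shScr and 10.1, 7.92 and 8.23 CPM in shDnmt3a. Its Dnmt3a libraries lay below GFP, and its hairpin libraries overlapped. It was lower on overexpression (-0.67 ± 0.10; edgeR quasi-likelihood, Benjamini-Hochberg adjusted p = 1.33e-06) and not called on knock-down (0.04 ± 0.10). The difference between the responses to knock-down and to overexpression was called for both, at 1.06 ± 0.16 for Lmod1 and 0.70 ± 0.14 for Smtn.

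Among the 6 crosslinkers and adhesion proteins, 4 were lower on overexpression, where 12.9% of all features were lower. On knock-down 3 were higher and 2 lower, where 23.3% and 22.5% of all features were, and with 6 genes these counts are not set apart from those shares. Filamin A (Flna), which joins actin filaments into networks and links them to integrins, stood at 923, 848 and 914 CPM in GFP, 697, 735 and 723 CPM in Dnmt3a, 512, 521 and 523 CPM in shScr and 324, 323 and 323 CPM in shDnmt3a. The 4 groups came in that order with no overlap. It was lower on overexpression (-0.32 ± 0.04; edgeR quasi-likelihood, Benjamini-Hochberg adjusted p = 3.19e-08) and fell further on knock-down (-0.68 ± 0.03; adjusted p = 1.81e-12 by the same test). Filamin C (Flnc) was lower in both as well (-0.38 ± 0.05 and -0.31 ± 0.05). Vinculin (Vcl) and alpha-actinin-1 (Actn1), both found at focal adhesions, were lower on overexpression (-0.23 ± 0.04 and -0.31 ± 0.04) and higher on knock-down (0.17 ± 0.04 and 0.19 ± 0.05). Vcl shares 2087 exon bases with the protein-coding gene Ap3m1 on the opposite strand, and the library kit does not keep strand. Whether reads of Ap3m1 entered the Vcl values was not tested. Alpha-actinin-4 (Actn4) was higher on knock-down (0.28 ± 0.08) with overlapping groups, a call lost with DESeq2 and without shDnmt3a replicate 1 (0.17), and its value on overexpression, -0.11 ± 0.05, was called only without GFP replicate 2 (-0.14) or Dnmt3a replicate 1 (-0.16) among the left-out libraries. Zyxin (Zyx), a focal adhesion protein, was not called on overexpression (-0.02 ± 0.10) or on knock-down (0.25 ± 0.12), the second of which was called without shScr replicate 2 (0.35).

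Of the 3 regulators, Srf and Yap1 were lower on overexpression and lower in shScr than in GFP, and on knock-down all 3 missed the threshold. Srf stood at 49.7, 46.7 and 49.8 CPM in GFP, 40.8, 44.1 and 40.1 CPM in Dnmt3a, 29.96, 32.6 and 30.9 CPM in shScr and 32.5, 32.5 and 33.2 CPM in shDnmt3a. It was lower on overexpression (-0.23 ± 0.05; edgeR quasi-likelihood, Benjamini-Hochberg adjusted p = 0.000488), not called on knock-down (0.08 ± 0.05) with overlapping groups, and lower in shScr than in GFP (-0.65 ± 0.05). Mkl1, between 23.1 and 27.5 CPM in all 12 libraries, was called neither on overexpression (-0.12 ± 0.06) nor on knock-down (-0.05 ± 0.06), and not between the controls. Its libraries stood at 25.8, 23.1 and 27.5 CPM in GFP, 23.4, 23.2 and 23.7 CPM in Dnmt3a, 24.3, 24.6 and 27.0 CPM in shScr and 25.0, 24.4 and 23.7 CPM in shDnmt3a. Without GFP replicate 2 its value on overexpression was -0.18 and was called. Yap1 stood at 89.7, 88.1 and 93.5 CPM in GFP, 82.2, 81.4 and 80.5 CPM in Dnmt3a, 83.9, 86.1 and 78.2 CPM in shScr and 86.4, 85.7 and 85.0 CPM in shDnmt3a. Only its Dnmt3a libraries lay apart from their control: the log2 fold change on overexpression was -0.15 ± 0.04 (edgeR quasi-likelihood, Benjamini-Hochberg adjusted p = 0.00366), -0.13 and not called without GFP replicate 3, and on knock-down it was 0.06 ± 0.04, not called. These are mRNA levels, and the activity of Mkl1 and Yap1 is set largely by where the proteins are in the cell.

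The YAP targets gave the largest values of the group. Cyr61, a secreted matrix protein, stood at 141, 138 and 139 CPM in GFP, 112, 107 and 110 CPM in Dnmt3a, 15.3, 18.2 and 15.4 CPM in shScr and 21.6, 18.8 and 17.4 CPM in shDnmt3a. As for Acta2, GFP and Dnmt3a lay far above the hairpin groups. It fell by 0.35 ± 0.04 on overexpression (edgeR quasi-likelihood, Benjamini-Hochberg adjusted p = 1.36e-08) and by 3.09 ± 0.06 from GFP to shScr. On knock-down its groups overlapped, and the call at 0.24 ± 0.08 (edgeR quasi-likelihood, Benjamini-Hochberg adjusted p = 0.0225) was lost without shScr replicate 1 (0.20) or 3 (0.20) and without shDnmt3a replicate 1 (0.16), with adjusted p over all alternatives between 0.00352 and 0.154.

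Ankrd1, an ankyrin repeat protein of muscle, stood at 4.77, 5.19 and 4.46 CPM in GFP, 2.76, 3.45 and 3.76 CPM in Dnmt3a, 0.890, 1.08 and 1.04 CPM in shScr and 1.80, 1.97 and 1.49 CPM in shDnmt3a. Neither pair overlapped. It changed by -0.53 ± 0.13 on overexpression (edgeR quasi-likelihood, Benjamini-Hochberg adjusted p = 0.00168) and by 0.82 ± 0.19 on knock-down (adjusted p = 0.00181 by the same test). Amotl2, an angiomotin that binds YAP and is itself a YAP target, departed from Ctgf, Cyr61 and Ankrd1 on knock-down. It stood at 218, 199 and 214 CPM in GFP, 195, 200.2 and 195 CPM in Dnmt3a, 153, 164 and 162 CPM in shScr and 114, 110.3 and 110.2 CPM in shDnmt3a. The shDnmt3a libraries were the lowest. It was lower on knock-down (-0.51 ± 0.04; edgeR quasi-likelihood, Benjamini-Hochberg adjusted p = 1.60e-09), and its value on overexpression, -0.10 ± 0.04, was called only without GFP replicate 2 (-0.13) of the left-out libraries.

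Ctgf, a secreted matrix protein like Cyr61, changed the most on knock-down. Its feature stood at 3.14, 4.23 and 3.24 CPM in GFP, 2.42, 2.24 and 1.96 CPM in Dnmt3a, 1.23, 1.29 and 1.72 CPM in shScr and 10.9, 8.95 and 9.33 CPM in shDnmt3a. Every shDnmt3a library was above every other library, and Dnmt3a lay below GFP. The log2 fold change was 2.79 ± 0.14 on knock-down, or 6.94-fold (edgeR quasi-likelihood, Benjamini-Hochberg adjusted p = 2.58e-12), and -0.69 ± 0.15 on overexpression (adjusted p = 0.000734 by the same test). The identity of the feature is uncertain: its listed length is 4037 bases, whereas the whole gene, exons and introns, spans 3242 bases on mm9 (chr10:24315248-24318489, plus strand, protein coding). A noncoding gene on the opposite strand, Gm15270, shares 570 exon bases with Ctgf in that annotation, and the library kit does not keep strand, so that which transcript these reads came from was not tested. Of the 41 members, 9 share exon bases with a gene on the opposite strand (Actn4, Ctgf, Des, Mkl1, Smtn, Tpm4, Vcl, Yap1 and Zyx), and the same limit applies to them; for Ctgf alone the listed length exceeds the span.

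**Figure D3:**
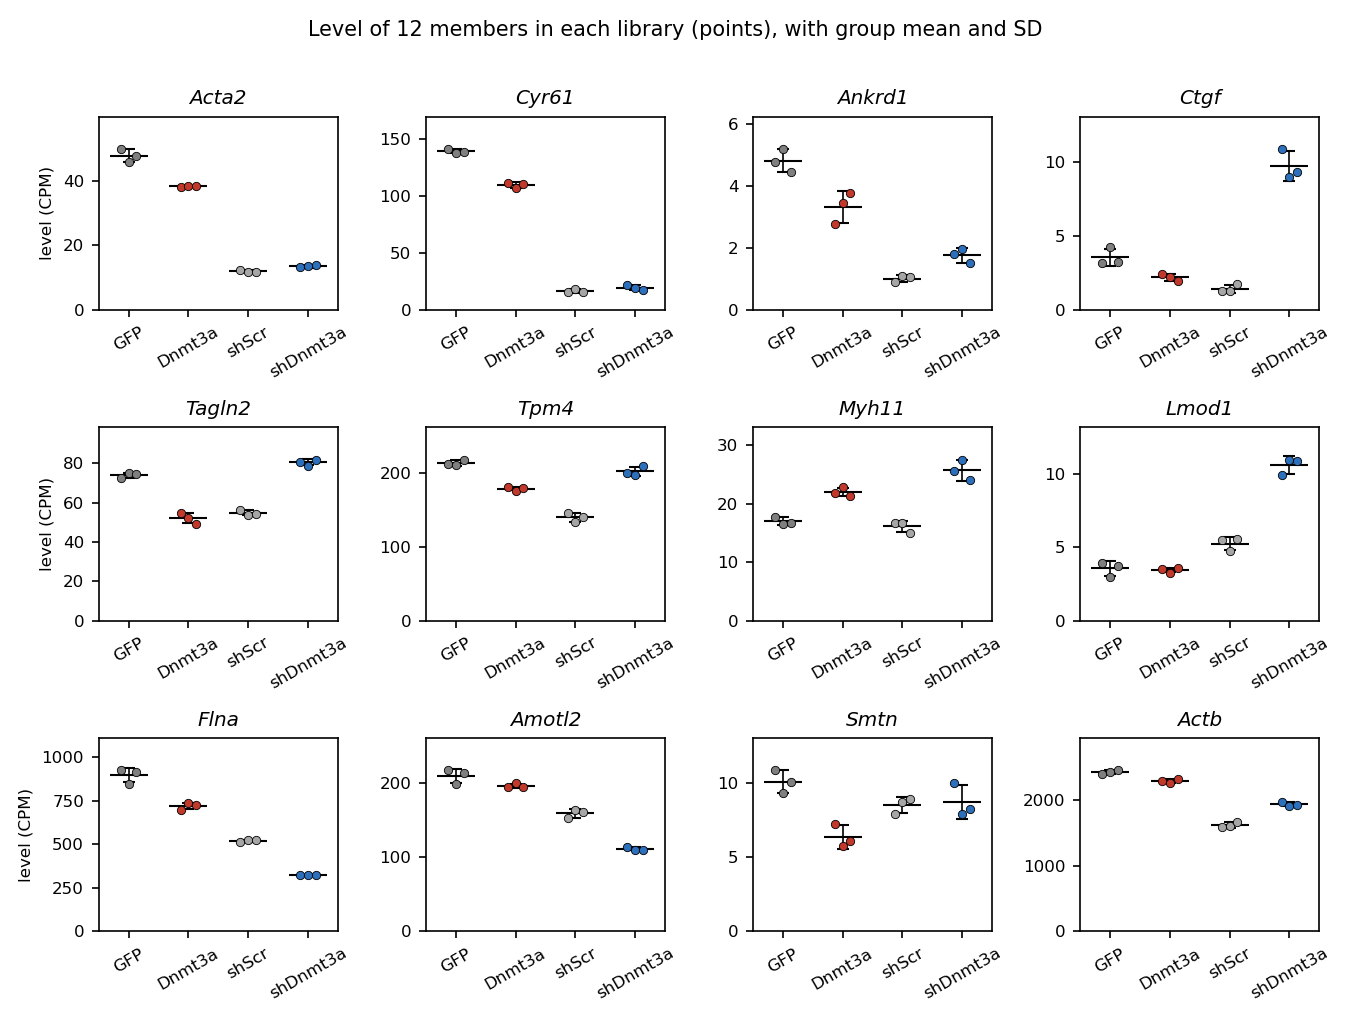
Level in CPM of 12 members in each of the 12 libraries (points; linear axes from 0), with the group mean and SD. Acta2, Cyr61 and Ankrd1 are highest in GFP and low in both hairpin groups, Ctgf and Lmod1 are highest in shDnmt3a, Myh11 is above its control in Dnmt3a and shDnmt3a, and Flna steps down over the 4 groups from 923 to 323 CPM.

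Set side by side, gain and loss of Dnmt3a, which share no library, moved the members in several combinations. Of the 36 members tested in both, 8 were lower on overexpression and higher on knock-down (22.2%): Acta2, Tagln2, Tpm4, Vcl, Actn1, Ctgf, Cyr61 and Ankrd1. Of all 13893 features tested in both, 3.63% were called in this way. A further 6 were lower in both (16.7%, against 3.10% of all features): Actg1, Cnn2, Cald1, Vim, Flna and Flnc. Another 6 were lower on overexpression and not called on knock-down (16.7%, against 6.23%), among them Srf, Yap1, Smtn and Myh9. Myl6 was the only member higher on overexpression and lower on knock-down (2.80%, against 6.03%). Of the 8, Acta2 and Cyr61 lost their calls on knock-down when certain single libraries were left out. The call of Acta2 was also lost with all libraries kept, with DESeq2 and without a filter on low counts.

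The difference of the responses, knock-down minus overexpression, was tested in the fit of 12 libraries and was called for 27 of 38 members (71.1%), where 40.3% of all 14491 features were called in either direction. It was positive for 22 (57.9%), that is, more toward higher levels on knock-down than on overexpression. It was negative for 5 (13.2%): Flna (-0.36 ± 0.05), Myl6 (-0.64 ± 0.05), Cnn3 (-0.24 ± 0.06), Myh10 (-0.19 ± 0.05) and Amotl2 (-0.42 ± 0.06). The shares of all features called positive and negative in this fit are not given, so these directional counts are not set against a background. With RLE size factors, another scaling of the totals, 2977 of all 14491 features were called positive and 2881 negative. Counts of members by direction are not given for that scaling. The largest positive differences were those of Ctgf (3.47 ± 0.21), Ankrd1 (1.34 ± 0.23), Tagln2 (1.06 ± 0.06) and Lmod1 (1.06 ± 0.16). All 4 tropomyosins and Cald1 were among the positive ones. The median difference was 0.28 over members and 0.02 over all features.

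**Figure D4:**
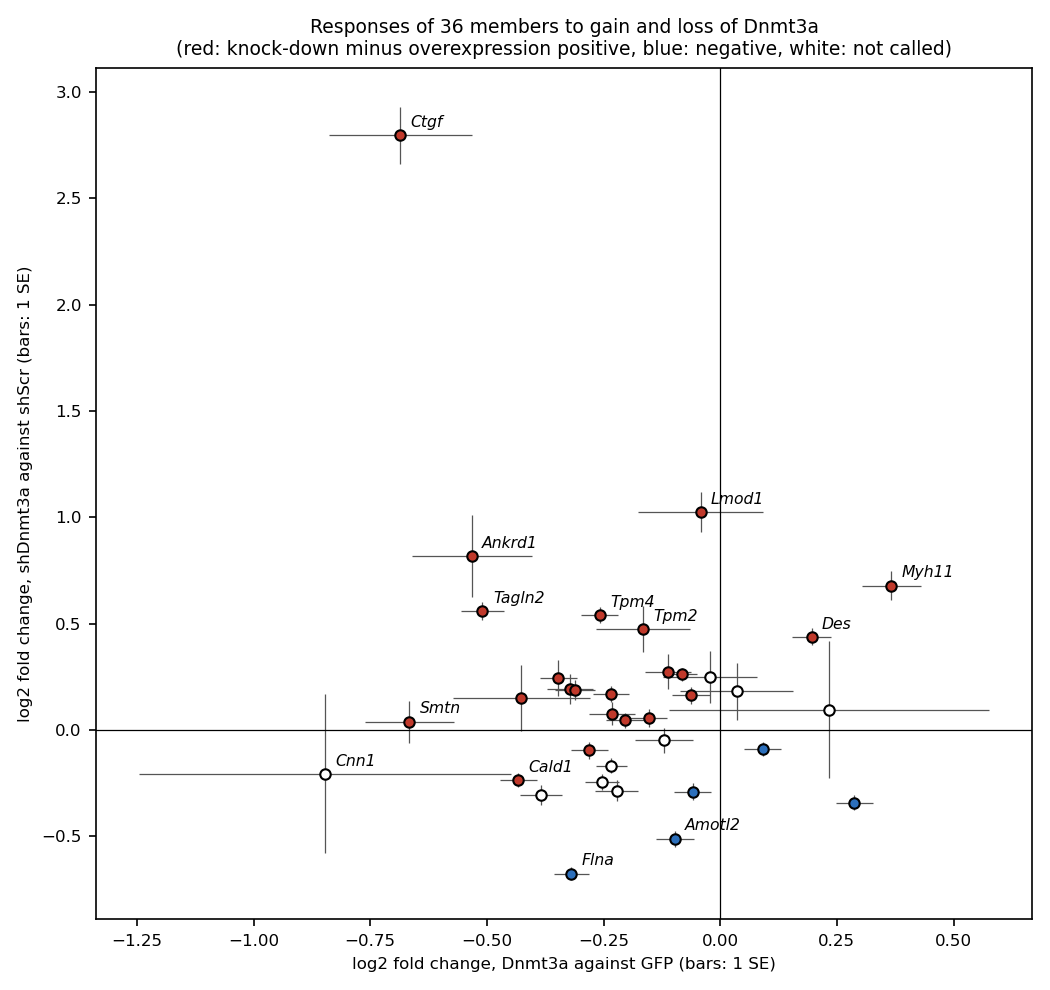
Log2 fold change on knock-down (vertical axis) against that on overexpression (horizontal axis) for the 36 members tested in both, with bars of 1 SE; red marks a called positive difference between the responses, blue a called negative one and white none. Ctgf lies apart at 2.79 on knock-down, and Flna, lower in both, is the lowest point at -0.68. The upper left holds the 8 members called lower on overexpression and higher on knock-down, together with others not called in both.

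The group as a whole took a smaller part of the mRNA in the hairpin libraries. Summed over the 41 members, the level ran from 8372 to 8580 CPM in GFP, from 7563 to 7650 CPM in Dnmt3a, from 5944 to 6214 CPM in shScr and from 5956 to 6079 CPM in shDnmt3a. The Dnmt3a libraries lay below GFP and the hairpin groups overlapped. Actb, Vim, Flna and Actg1 carry much of this sum, and the sum hides the opposite changes of Actb and Flna on knock-down.

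The surrounding pathways were followed with lists of other genes. Of 29 genes of actin assembly and turnover, 6 were higher (20.7%) and 5 lower (17.2%) on overexpression, near the 14.3% and 12.9% of all features. On knock-down 18 were higher (62.1%, against 23.3% of all features) and 5 lower (17.2%, against 22.5%). Moesin (Msn), which ties filaments to the membrane, and Wasl, which starts branched filaments, were lower on overexpression (-0.42 ± 0.05 and -0.29 ± 0.05). The monomer-binding thymosin beta-4 (Tmsb4x) went from between 69.6 and 77.9 CPM to between 135 and 144 CPM on knock-down (0.95 ± 0.04), and twinfilin-1 (Twf1), another monomer-binding protein, rose by 0.39 ± 0.04. For focal adhesions and integrins, 10 of 23 genes were lower (43.5%, against 12.9% of all features) and 1 higher (4.35%, against 14.3%) on overexpression. On knock-down 9 were higher (39.1%, against 23.3%) and 2 lower (8.70%, against 22.5%). The integrin subunit Itgav and the adhesion scaffold Bcar1 were lower on overexpression (-0.30 ± 0.04 and -0.33 ± 0.05). The collagen receptor subunit Itga11 rose from between 1.66 and 1.92 CPM to between 5.08 and 5.69 CPM on knock-down (1.62 ± 0.13), and Lims2, an adaptor of integrin adhesions, rose by 0.82 ± 0.07.

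Other SRF cofactors and targets had 8 of 17 genes lower (47.1%, against 12.9% of all features) and 9 not called on overexpression. On knock-down 10 were higher (58.8%, against 23.3%) and 1 lower (5.88%, against 22.5%). The focal adhesion adaptor Tgfb1i1 and the actin-binding palladin (Palld) were lower on overexpression (-0.60 ± 0.12 and -0.54 ± 0.11). On knock-down the actin-binding synaptopodin-2 (Synpo2) rose from between 0.431 and 0.869 CPM to between 3.44 and 3.77 CPM (2.58 ± 0.20), whereas the cofactor Fhl2 was the 1 gene that fell, from between 35.9 and 41.7 CPM to between 16.8 and 20.6 CPM (-1.10 ± 0.07). Of 22 other genes of the Hippo-YAP pathway, 9 were lower (40.9%, against 12.9% of all features) and 1 higher (4.55%, against 14.3%) on overexpression. On knock-down 9 were lower, as the member Amotl2 was (40.9%, against 22.5%), and the 5 higher ones (22.7%) were near the 23.3% of all features. Tead1, a DNA-binding partner of YAP, and Arhgef17, a guanine nucleotide exchange factor, were lower on overexpression (-0.54 ± 0.06 and -0.25 ± 0.05), and on knock-down Tead2, a related factor, rose by 0.35 ± 0.05 and tissue factor (F3) fell by 0.35 ± 0.04. Of 6 smooth muscle markers outside the group that were tested, 2 were higher on knock-down (33.3%, near the 23.3% of all features), and Mylk, the kinase of the myosin light chain, stood between 193 and 246 CPM over all libraries and made up most of the list's sum, and Myocd, the cofactor that directs the smooth muscle programme, had 79 counts over the 12 libraries together.

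**Figure D5:**
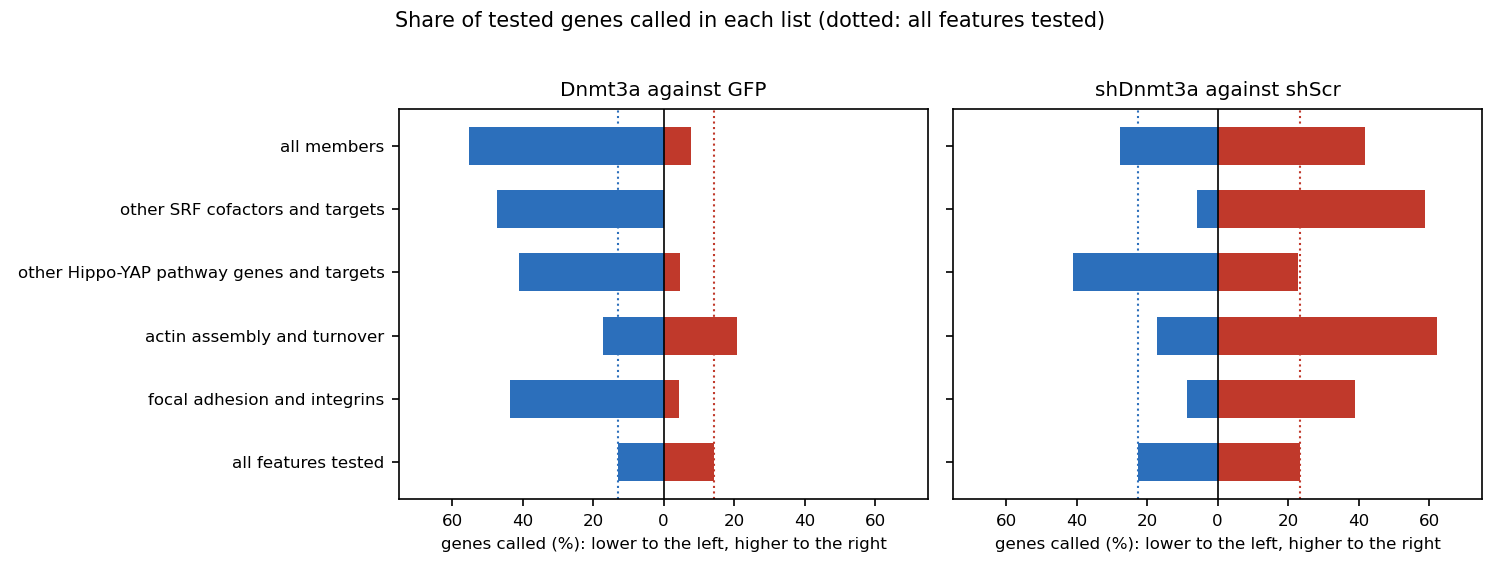
Percent of tested genes called lower (blue, to the left) and higher (red, to the right) among the members and in 4 pathway lists, on overexpression (left) and knock-down (right), with the shares of all features as the last bars and as dotted lines. On overexpression 55.3% of members were lower where 12.9% of all features were, and on knock-down 62.1% of the actin assembly list were higher where 23.3% of all features were.

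The genes whose levels most resembled Acta2 over the 12 libraries, out of 13854 features outside and inside the group, were Junb, Egr2, Hcfc1r1, Eps8, Klf6 and Ier2, with Pearson's r of log2 CPM between 0.990 and 0.998, and among the members Cyr61 (0.995). These values describe the libraries: the 6 pCDH and 6 hairpin libraries form separate levels that all of these genes share. Within the 6 GFP and Dnmt3a libraries r ran from 0.729 for Ier2 to 0.973 for Egr2, and within the 6 hairpin libraries from 0.196 for Ier2 to 0.878 for Junb. Junb, a subunit of AP-1, stood between 87.1 and 89.1 CPM in GFP, 65.8 and 74.6 CPM in Dnmt3a, 14.6 and 15.7 CPM in shScr and 17.5 and 18.3 CPM in shDnmt3a. Egr2, an immediate-early transcription factor, stood between 16.5 and 17.8 CPM in GFP, 11.5 and 12.9 CPM in Dnmt3a, 1.38 and 1.61 CPM in shScr and 1.78 and 2.05 CPM in shDnmt3a. Of the members, Myh10 was the least like Acta2 (r = -0.960).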

How the data were processed

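RNA was depleted of ribosomal RNA and made into libraries with a TruSeq v2 kit, which does not keep strand. Per the submitters' processing notes, the tools were bcl2fastq 2.17.1.14, TopHat2 2.0.14, Picard 2.2.4, SAMtools 0.1.19, featureCounts 1.4.6 and edgeR, with build mm9, whose annotation the authors altered to reduce overlapping transcripts. The authors deposited raw read counts per feature for 12 libraries in 1 table, with a symbol and a length for each feature; the sources used here do not give the strand setting of the counting. Total counts ran from 29084732 to 47341091 per library, so that a floor of 3 counts lies at 0.107 CPM or less. No features were left without a symbol.

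Here, the counts were tested with edgeR 4.0.16 (R 4.3.3): filterByExpr with a minimum count of 10, TMM scaling and the quasi-likelihood test, with Benjamini-Hochberg adjustment over all features tested and a threshold of 0.05. Each virus was set against its own control in a fit of 6 libraries; shScr against GFP and the difference of the responses came from 1 fit of 12 libraries. The biological coefficient of variation was 3.98%, 4.03% and 4.01% in these fits. Where a symbol had several features, the one with the highest mean count would have been used, but no member had more than 1. Replicates differed by more than sampling noise (chi-square over degrees of freedom between 2.52 and 10.7). The scripts were tested on simulated data. Alternatives were RLE size factors, no filter, a filter of 1 CPM in 3 libraries, DESeq2 1.42.0, counts summed over a symbol, the replicate number as a block, 1 fit of all libraries and leaving out each library.

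Values in every library are given for members called in either comparison with a log2 change of 0.5 or more in size (10 members), the 4 muscle actins, Actb, Srf, Mkl1 and Yap1; from each pathway list, the 2 called genes with the smallest p in each comparison are named, and 6 genes most like Acta2. The results of 1 further pathway list are not reported here. The members and the lists were chosen with earlier results of these data known. Correlations used log2 CPM with a prior count of 2. Gene spans and overlaps were read from GENCODE on mm9, and promoter windows from RefSeq on GRCm38.p6; coordinates were not converted between the builds.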

Additional observations from a re-analysis of the deposited data

How the results depend on the processing

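The counts of members called, recomputed 106 times under the alternatives, were each within 1.5 times the reported count. Leaving out 1 library gave between 19 and 23 members lower and between 3 and 4 higher on overexpression, between 13 and 15 higher and between 9 and 11 lower on knock-down, between 25 and 28 lower and between 3 and 4 higher in shScr than GFP, and between 25 and 27 for the difference of the responses. The replicate numbers did not pair the samples: the correlation of deviations between samples with the same number lay between -0.049 and 0.008, and with the replicate block the counts were 23 lower and 3 higher on overexpression, 14 higher and 9 lower on knock-down, 25 lower and 3 higher in shScr than GFP, and 27 for the difference. Under that block Acta2 (0.19) and Myh10 (-0.09) were no longer called on knock-down, and Actb (-0.08) and Actn4 (-0.11) were called on overexpression.

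Of 74 results for single members, 7 calls were lost under at least 1 alternative, 7 uncalled members were called under at least 1, and 6 uncalled values changed sign. All sign changes came from leaving out 1 library; the values then ranged on overexpression from -0.020 to 0.081 for Acta1, -0.16 to 0.052 for Lmod1 and -0.10 to 0.042 for Zyx, where without Dnmt3a replicate 1 it was 0.0004, and on knock-down from -0.54 to 0.014 for Cnn1, -0.20 to 0.33 for Tnnc1 and -0.071 to 0.11 for Smtn. The cause was not tested. Depth limits what can be said of Actc1, Actg2, Tnnt1, Tnnt3, Cnn1 and Tnnc1, and with 3 libraries per group small changes rest on the spread between few libraries.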
